A study of Mus musculus with 12 samples.

Results

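The cytosolic ribosome is built from 2 subunits, each an RNA scaffold covered by single copies of many different proteins. The genes of these proteins are scattered over the chromosomes, yet their mRNAs are among the most abundant of any growing cell and are usually made in balanced amounts. Many of these mRNAs begin with a tract of pyrimidines, the 5′ terminal oligopyrimidine (TOP) motif, through which the kinase complex mTORC1 and the RNA-binding protein LARP1 control their translation. In tumour cells the output of these genes is known to follow growth signals such as MYC.

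The ribosomal protein genes were taken by symbol from the series' count table: Rpl or Rps followed by a digit, or Rpsa, Rplp0, Rplp1 and Rplp2, without the Rps6k kinases and without the 18 rows whose symbols carry -ps. The rule found 88 of 22880 features, 53 named for the large subunit and 35 for the small subunit. Of these, 77 were taken as core ribosomal protein genes, and 11 were set apart from this core by their symbols. These are the paralogues or retrogenes Rpl3l, Rpl6l, Rpl7l1, Rpl10l, Rpl22l1, Rpl36al, Rpl39l, Rps4l, Rps27l and Rps27rt, and Rps19bp1. The last encodes a protein that binds RPS19 and is no ribosomal subunit. A filter on low counts kept 84 of the 88. The other 4 had next to no reads in the 12 libraries together: Rpl39l had 3 counts, Rpl3l 2, Rps4l 1 and Rpl10l 0, which over 198906625 counts allows at most 0.0151 CPM for Rpl10l. Fau and Rack1 are ribosome components that fall outside the naming rule and are given separately.

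All RNA was taken from the mouse mammary tumour line 4T1, whose cells spread to the lung, in 4 groups of 3 libraries. Mock cells were transfected with the empty plasmid pcDNA3.1 and MYBup cells with pcDNA3-mMyb, which carries mouse Myb. Wt and lung3 cells were not transfected, and lung3 cells had gone through in vivo passaging in the lung 3 times. The labels call the lung metastatic activity normal for mock and wt, low for MYBup and high for lung3. Whether the transfected cells were a pool or 1 clone is not stated, and for this reason clone and plasmid cannot be told apart. Separate cultures are not stated for the replicates either: p-values here measure library-to-library spread alone, and it may be technical.

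Library totals ran from 8912989 to 24745660 counts. Myb averaged 5.49 ± 1.19 CPM (counts relative to the library total after TMM scaling; SD, n = 3) in mock, 40.7 ± 1.94 in MYBup, 4.99 ± 0.742 in wt and 2.71 ± 0.459 in lung3 cells. The 7 mammary epithelial markers summed to between 1989 and 2796 CPM in every library, and 10 leukocyte markers to between 5.87 and 14.7. The sum of 7 fibroblast markers was 36.6 to 49.0 CPM in mock, 39.1 to 49.6 in MYBup, 22.0 to 29.6 in wt and 15.5 to 21.6 in lung3 libraries. Of these 7 markers, 3 were at 0 in all mock libraries, 4 in MYBup, 1 in wt and 4 in lung3, so the sums rest on the remaining genes. The part of this sum in the differences of the ribosomal protein genes was not tested. Sums did not exceed 0.525 CPM for endothelium, 0.0759 for erythroid cells and 0.204 for lung epithelium. Cd3e, Adgre1, Lum, Kdr, Sftpa1, Sftpb, Sftpc, Sftpd and Nkx2-1 were at 0 in all 12 libraries.

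The sequences below show runs of pyrimidines around the annotated starts of some genes. A run can be a TOP motif only where the mRNA begins with it. Each sequence runs from 25 bases before to 24 bases from a RefSeq start (GRCm38.p6, 5′ to 3′ on the gene's own strand), with its longest run of C and T in capitals. The first set shows some of the genes that differed between MYBup and mock cells, and the second some that ran against the other ribosomal protein genes between libraries, as described further on.
Rpl15: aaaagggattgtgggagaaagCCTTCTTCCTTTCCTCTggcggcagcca
Rps10: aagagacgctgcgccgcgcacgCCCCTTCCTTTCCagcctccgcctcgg
Rps24: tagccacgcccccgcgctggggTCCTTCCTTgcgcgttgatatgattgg
Rps26: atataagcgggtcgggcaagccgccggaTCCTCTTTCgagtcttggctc
Rpl22l1: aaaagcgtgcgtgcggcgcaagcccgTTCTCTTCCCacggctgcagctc
Rpl27a: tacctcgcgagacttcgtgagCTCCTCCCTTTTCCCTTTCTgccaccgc
Rplp2: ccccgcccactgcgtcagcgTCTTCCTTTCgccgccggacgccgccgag
Rpl13: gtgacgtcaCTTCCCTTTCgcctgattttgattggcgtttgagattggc
These windows lie at chr14:18270963-18271011 for Rpl15, chr17:27635221-27635269 for Rps10 and chr10:128626483-128626531 for Rps26, all on the minus strand. On the plus strand are chr14:24490653-24490701 for Rps24, chr3:28805483-28805531 for Rpl22l1, chr7:109519170-109519218 for Rpl27a, chr7:141447626-141447674 for Rplp2 and chr8:123102325-123102373 for Rpl13. The run was 17 bases long in Rpl15, 13 in Rps10 and 20 in Rpl27a. It began within 5 bases of the annotated start in all of these printed genes except Rpl13, where it began 16 bases upstream and ended before the start. In Rpl22l1 and Rps26 it began 1 and 3 bases after the start base. The annotated transcripts of Rpl13, Rpl22l1 and Rps26 therefore do not begin with the run. Rpl22 (which has several listed starts), Rps2 and Rps27l also differed between MYBup and mock cells but are not printed. In the first listed entry, which alone was used, their longest runs had 4, 6 and 9 bases. These runs began at -16, 4 and -22 from the annotated start. The printed genes are therefore no measure of how common the motif is.

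A promoter was listed for 66 of the 88 genes. Where a gene had several listed starts, only the first was used, here and for all other genes. A run of at least 8 pyrimidines lay in this window in 30 of the 66 (45.5%), against 18.1% of 8872 tested genes with an entry and 19.2% of all 27025 promoters in the table. Runs of at least 10 were found in 31.8%, 8.5% and 8.95%. Within the full 300 bases of an entry, on either strand, the ETS family core CCGGAAG stood in 37.9% of the ribosomal protein promoters and 19.8% of tested genes, and the YY1 core AANATGGC in 18.2% and 9.39%. The c-Myb core AACNG was present in 80.3% and 77.5%, and in 80.4% of all promoters. The E box CACGTG, a site of the MYC family, was found in 7.58% and 10.5%, and TATAAA in 9.09% and 6.41%. A match to such letters is a description and not evidence that a factor binds.

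Ribosomal protein genes took between 5.19% and 7.03% of all counts of a library. The share was 5.73%, 6.96% and 5.19% in mock replicates 1 to 3 (mean 5.96% ± 0.905, SD, n = 3) and 7.03%, 5.86% and 6.14% in MYBup (6.34% ± 0.610). It was 6.47%, 6.51% and 5.66% in wt (6.21% ± 0.480) and 6.47%, 5.53% and 5.71% in lung3 cells (5.90% ± 0.498). The ranges of all 4 groups overlapped, and mock cells had the widest range, from replicate 3 to replicate 2. Counting error is small beside these gaps, with a 95% Wilson interval of at most 0.0150 percentage points to either side, which covers counting error only. In RNA from whole cultures, fewer cells of a kind and less of this RNA per cell cannot be told apart. Mitochondrially encoded genes took between 0.676% and 1.09% of the counts of a library, with group means between 0.871% and 0.913%.

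**Figure D1:**
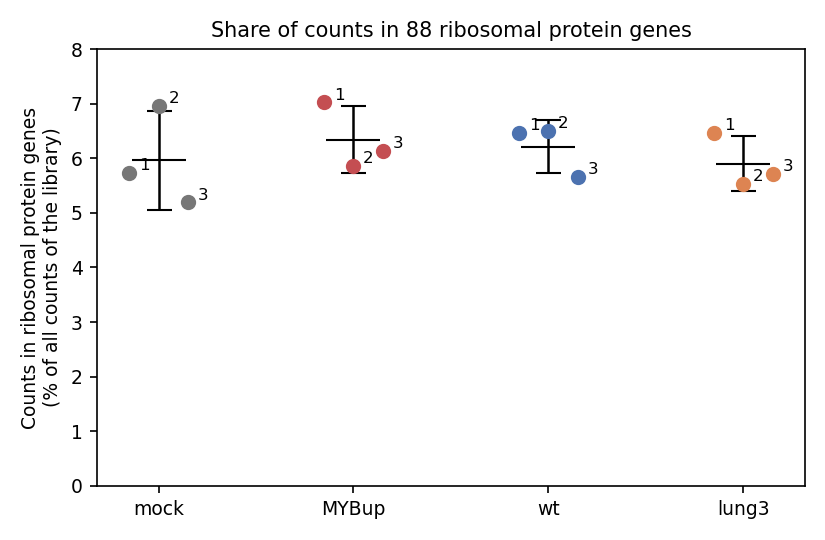
Share of all counts in the 88 ribosomal protein genes (y axis, percent) for each of the 12 libraries, by group; numbers are replicates, and bars give the mean and SD of 3 libraries. Mock replicate 2 and MYBup replicate 1 stand near 7%, and the ranges of all 4 groups overlap.

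Levels differed widely between members. Levels of different genes are compared here per length, as counts per kilobase of exon scaled to 1 common total over the tested genes of each library (TPM). Rplp1, a protein of the flexible stalk that recruits elongation factors, was highest, at 11881 ± 1278 TPM in mock, 13717 ± 1468 in MYBup, 14243 ± 936 in wt and 9650.0 ± 2634 in lung3 cells (SD, n = 3). It ranked first of the members also when the length of the shortest coding transcript was used. Rps15, at the head of the small subunit, and Rps4x, a small-subunit protein encoded on the X chromosome, came next, with 4720.5 ± 615 and 4536 ± 760.4 TPM in mock cells. Rps15 and Rps4x took ranks 2 and 3, but 11 and 7 with transcript lengths, so the order below Rplp1 depends on the gene model. The lowest of the tested members were Rpl6l (6.25 ± 1.201 TPM in mock), Rps27rt (9.18 ± 2.46) and Rps19bp1 (56.7 ± 5.57), all outside the core.

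Most of these genes were high in the same libraries of a group and low in the same others. Log2 CPM of each gene (with a prior count of 2) was set against its own group mean. In mock cells 20, 79 and 7 of the 84 tested members lay above their mean in replicates 1, 2 and 3, while 51.8%, 52.1% and 49.7% of all 11291 tested genes did. In MYBup cells the counts were 73, 6 and 20, in wt cells 71, 75 and 3, and in lung3 cells 82, 16 and 19, against 48.1% to 53.7% of all tested genes. Mock replicate 2 held the highest value of its group for 79 of 84 members, MYBup replicate 1 for 72, lung3 replicate 1 for 78, and wt replicate 3 the lowest for 75. Both subunits took part: in mock replicate 2, 41 of 46 core large-subunit genes and 31 of 31 core small-subunit genes lay above their mean, and in wt replicate 3, 2 and 0 did.

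In size, the median member stood 0.27 above its group mean in mock replicate 2 and at -0.24 in mock replicate 3 on the log2 scale. This is a span of 0.51, or 1.42-fold. The span was 0.32 (1.25-fold) in MYBup, 0.27 (1.204-fold) in wt and 0.18 (1.13-fold) in lung3 cells. The median of all tested genes moved by at most 0.015 within a group. RLE size factors, library totals alone, and TMM factors computed without these genes left the same libraries with most members above their mean and the same with most below; the counts moved by a few genes, as from 20 to 16 in mock replicate 1 with library totals.

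**Figure D2:**
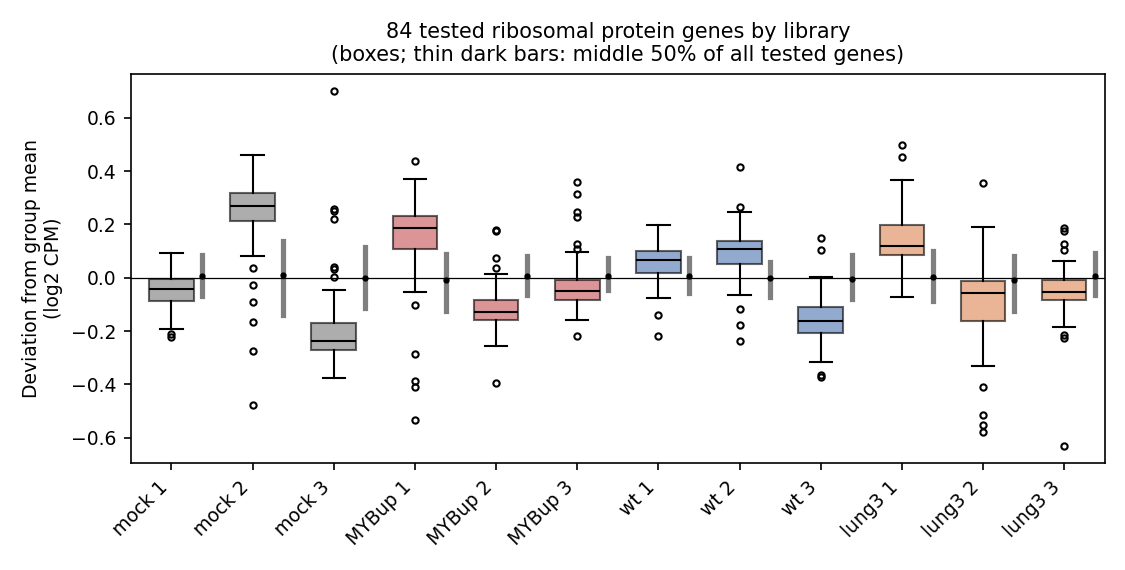
Deviation from the group mean (y axis, log2 CPM) of the 84 tested ribosomal protein genes in each of the 12 libraries; boxes hold the middle 50% with the median as a line, whiskers reach up to 1.5 times the box height and circles lie beyond. Dark bars to the right of each box give the middle 50% of all 11291 tested genes, which stays near 0 in the libraries where the boxes are shifted, such as mock replicate 2.

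The residual SD around group means (8 degrees of freedom) had a median of 0.194 log2 units over the members, 0.146 over all tested genes and 0.112 over the 4926 other genes at least as high as the lowest core member. After each library's own member median was taken away, the members' median SD was 0.0786. Treated in the same way with their own medians, those other high genes had 0.113, translation factors and other TOP mRNA genes 0.0840 and ribosome biogenesis factors 0.0763. Core genes of the large and small subunit had similar residual SDs, 0.193 and 0.194. The most variable members were Rpl27a (0.47), the retrogene Rps27rt (0.42), which has 286 counts in all, and Rpl36 (0.35), while Rps10 had the smallest value (0.105).

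Other short transcripts shifted in the same libraries, by less. This was seen in 556 other genes at least as high as the lowest core member. Their transcripts had at most 899 bases, the upper quartile of the core members. They were not matched to the members in level beyond this floor. Of these genes 74.8% lay above their group mean in mock replicate 2, 71.4% in MYBup replicate 1 and 38.1% in wt replicate 3. Their median deviation in mock replicate 2 was 0.14, about as far as that of translation factors (0.14, 34 of 40 above) and less than that of mitochondrial ribosomal proteins (0.21, 69 of 77 above), which serve the separate ribosome of mitochondria. Ribosome biogenesis factors, which assemble the subunits in the nucleolus, had 0.10 (39 of 46 above). In lung3 replicate 1, mitochondrial ribosomal proteins were above their mean in 70 of 77 cases and biogenesis factors in 23 of 46. The part of transcript length or RNA quality in the shift of the ribosomal protein genes was not tested. Mock replicate 2 and MYBup replicate 1 enter the comparisons with mock and MYBup cells below.

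A handful of members did not follow. Rpl27a and Rpl36 deviated against the member median in 8 of 12 libraries and Rpl13, Rplp1 and Rplp2 in 7; these 5 were singled out after their values were seen. Rplp2 is the partner of Rplp1 in the stalk, while Rpl13, Rpl27a and Rpl36 belong to the body of the large subunit. In mock replicate 3, where the member median was -0.24, Rpl27a deviated by 0.70, Rpl36 by 0.26 and Rplp2 by 0.25. In MYBup replicate 1, with a median of 0.19, Rpl27a stood at -0.53, Rpl13 at -0.41 and Rpl36 at -0.39. In lung3 cells the 5 genes shared a library: replicate 2 was low in each of them, with deviations of -0.58 in Rpl36, -0.55 in Rpl27a and -0.51 in Rplp1 against a median of -0.06. Lung3 replicate 2 is also the library with the fewest counts. Taking the member median away raised the residual SD of each, to 0.59 in Rpl27a and 0.44 in Rpl36. The sequences printed above show that the runs of Rpl27a and Rplp2 reach over the annotated start, while that of Rpl13 ends before it.

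**Figure D3:**
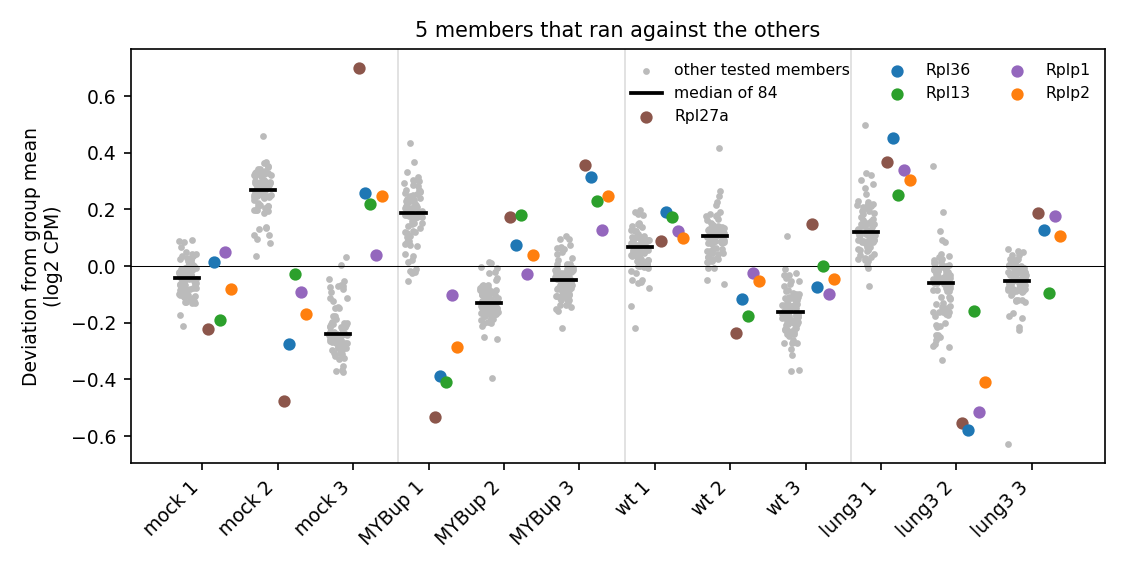
Deviation from the group mean (y axis, log2 CPM) of Rpl27a, Rpl36, Rpl13, Rplp1 and Rplp2 (coloured points) and of the other 79 tested members (grey points) in each of the 12 libraries, with the median of all 84 as a black line. In mock replicate 3 and MYBup replicate 1 the coloured points lie mostly on the other side of 0 from the median.

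MYBup and mock cells differ by the Myb plasmid. The median of the ribosomal protein genes moved little in the fit over all libraries. Differences were tested with edgeR's quasi-likelihood test over all 12 libraries, with Benjamini-Hochberg adjustment over 11291 genes and a threshold of 0.05. Of 84 tested members 7 were higher in MYBup, 8.33%, where 14.3% of all tested genes were higher, and 2 were lower, 2.38% against 12.6%. Both shares were below those of all genes in this fit. The median SE was larger over the members, 0.137 against 0.117 over all tested genes, and it was larger in the other 3 comparisons too. A larger SE lowers the number of calls at an equal change, and its part in these shares was not tested. The median log2 fold change was 0.06, beside 0.00 over all tested genes, and it had the other sign without MYBup replicate 1 (-0.07) or mock replicate 3 (-0.07). Without mock replicate 2, 16 members were called higher and 0 lower (median 0.19); without mock replicate 1, 2 were higher and 1 lower; without MYBup replicate 2, 4 higher and 0 lower; without MYBup replicate 3, 2 higher and 0 lower; and without lung3 replicate 3, 3 higher and 2 lower. In the fit without mock replicate 2, 14.9% of all genes were higher and 14.8% lower, so the members' share called higher, 19%, was above that of all genes there; in the other 4 fits 9.5% to 13.9% of all genes were higher and 8.47% to 12.2% lower. An unadjusted p under 0.05 was found in 15 members, where 39.1% of all genes had one. Without overlap between the 2 groups, 8 members were higher (21.8% of all genes) and 1 lower (18.8%).

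Rpl13 had the largest change. Its levels were 376, 422 and 501 CPM in the mock and 559, 841 and 870.3 CPM in the MYBup libraries, which did not overlap (log2 fold change 0.81, SE 0.17, adjusted p = 0.00326, n = 3, edgeR). This call held without each of the libraries in turn and in every other fit tried. Rpl13 lies at chr8:123102350-123105244 (GRCm38). Rps10, a small-subunit protein near the mRNA entry, followed, with 403, 437 and 389 CPM in mock and 521, 515 and 554 CPM in MYBup (log2 fold change 0.37, SE 0.09, edgeR adjusted p = 0.00717). Every MYBup library of Rps10 exceeded every mock library, and its residual SD was the smallest of the members. Rps10 spans chr17:27630418-27636669 and Rps26 chr10:128624534-128626747. Rps26, which contacts the mRNA upstream of the start codon, had 533, 621 and 544 CPM in mock and 719.7, 734 and 730.1 CPM in MYBup (log2 fold change 0.36, SE 0.10, edgeR adjusted p = 0.0197). Exons of Rpl13 hold the small nucleolar RNA gene Snord68, and those of Rps10 share up to 475 bases with the readthrough gene RPS10-NUDT3, so reads of both could be split or added by the counting.

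The other 4 higher members stood close to the threshold. Rpl15 rose by 0.40 on the log2 scale, Rps24 and Rps2 by 0.36 each and Rpl22 by 0.29, with adjusted p between 0.0387 and 0.0477 (edgeR). Each lost its call in several fits: without mock replicate 1 the adjusted p was 0.127 for Rpl15, 0.155 for Rps24, 0.158 for Rps2 and 0.145 for Rpl22, and the call of each ended as well without mock replicate 3, MYBup replicate 1 or MYBup replicate 3. That of Rpl22 also ended without MYBup replicate 2 or any single wt or lung3 library, that of Rps24 without any single wt or lung3 library, that of Rpl15 without MYBup replicate 2, wt replicate 1 or lung3 replicate 3, and that of Rps2 without MYBup replicate 2 or lung3 replicate 3. Rps26 lost its call without mock replicate 1, MYBup replicate 2 or MYBup replicate 3 (adjusted p up to 0.0821). The ribosomal protein genes mutated in Diamond-Blackfan anaemia, a failure of red cell formation, include Rpl15, Rps10, Rps24 and Rps26. Of these 18 genes 4 were called higher (22.2%, where 14.3% of all tested genes were) and 0 lower (12.6% of all genes), and the calls of Rpl15 and Rps24 ended in many of the fits above.

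Both lower members were paralogues outside the core. Rpl22l1, the paralogue of Rpl22, fell by 0.45 on the log2 scale, with 71.6, 93.5 and 68.1 CPM in mock and 68.8, 53.9 and 48.5 CPM in MYBup (SE 0.15, edgeR adjusted p = 0.0406). The ranges of Rpl22l1 touched, since MYBup replicate 1 lay just above mock replicate 3. Rps27l, a p53-inducible paralogue of Rps27, fell by 0.31, with 144, 180.1 and 149 CPM in mock and 143, 118 and 119.8 CPM in MYBup (SE 0.10, edgeR adjusted p = 0.0281). Its ranges did not overlap. Rpl22l1 lies at chr3:28805436-28807424, Rpl22 at chr4:152325742-152334071 and Rps27l at chr9:66946086-66949516. The call of Rpl22l1 ended without mock replicate 1, mock replicate 2, MYBup replicate 2, MYBup replicate 3, wt replicate 2 or lung3 replicate 1 (adjusted p up to 0.17), and that of Rps27l without mock replicate 2, MYBup replicate 2 or MYBup replicate 3 (up to 0.11). Exons of Rpl22l1 share up to 159 bases with Gm33051 on the opposite strand, and how the counting treated strand is not given in the sources used here.

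**Figure D4:**
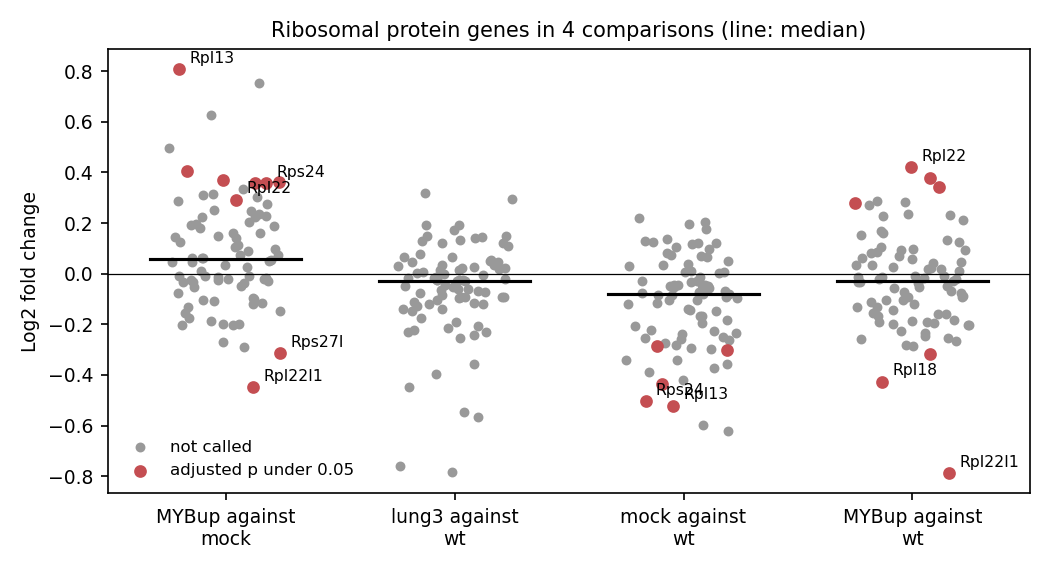
Log2 fold change (y axis) of the 84 tested ribosomal protein genes in 4 comparisons; each point is a gene, red points have an edgeR adjusted p under 0.05 and black lines are medians. The medians lie between -0.08 and 0.06, and the called genes number 9, 0, 5 and 7 from left to right.

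Lung3 and wt cells differ by the passages through the lung. In the fit over all libraries 0 of 84 members were called by edgeR, where 2.91% of all tested genes were higher and 2.44% lower. An unadjusted p under 0.05 was found in 11 members, where 21.3% of all genes had one. DESeq2 called 3 lower (3.57%), near the 3.79% of all genes lower in that fit. Without overlap, 3 members were higher (14% of all genes) and 5 lower (13.4%). The median log2 fold change was -0.03, with 52 members below 0 and 32 above. Replicate numbers appeared to pair the lung3 and wt libraries, although the labels state no pairing. When replicate numbers entered the model as a block over these 6 libraries, edgeR called 11 members lower (13.1%, where 9.24% of all genes tested were lower) and 1 higher (1.19%, where 8.67% were). The median with the block was -0.03. Single libraries also moved the count: without lung3 replicate 1, 4 members were called lower, without MYBup replicate 1, 2 lower, and without mock replicate 2, 1 higher and 1 lower. Over all genes 1.75%, 2.49% and 3.37% were lower in these 3 fits, and 4.11% were higher without mock replicate 2.

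The 5 largest decreases were those of the genes that ran against the rest. Rpl36 had 417, 337 and 347 CPM in wt and 279, 136 and 223 CPM in lung3 libraries, with no overlap (log2 fold change -0.78, SE 0.23, edgeR adjusted p = 0.0631; with the block -0.83, adjusted p = 3.5e-05). Rpl27a had 297, 237 and 309 CPM in wt and 206, 109 and 182 CPM in lung3 (log2 fold change -0.76, edgeR adjusted p = 0.167; with the block -0.80, adjusted p = 1.2e-05). Rpl13 had 698, 547 and 619 CPM in wt and 495, 373 and 389 CPM in lung3 (log2 fold change -0.57, edgeR adjusted p = 0.0673; with the block -0.57, adjusted p = 2.3e-05). In all 3 genes every lung3 library lay below every wt library. Rpl36 lies at chr17:56613416-56614243, Rpl27a at chr7:109519147-109522367 and Rplp1 at chr9:61913284-61914542. For Rplp1 the values were 2179, 1969 and 1869.6 CPM in wt and 1682, 932 and 1503 CPM in lung3 (log2 fold change -0.55, edgeR adjusted p = 0.0699; with the block -0.59, adjusted p = 0.00133). Rplp2 had a log2 fold change of -0.45 (edgeR adjusted p = 0.151; with the block -0.47, adjusted p = 0.00161). The third stalk protein gene, Rplp0, had -0.06. The member called higher with the block was Rps19bp1, with 17.5, 17.2 and 17.1 CPM in wt and 20.4, 21.8 and 22.2 CPM in lung3 (log2 fold change 0.32, edgeR adjusted p = 0.116; with the block 0.32, adjusted p = 0.0293).

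The 2 comparisons share no library, and opposite signs in them are of interest because the labels call MYBup low and lung3 high in metastatic activity. No member could be called in both in the fit over all libraries, since 0 were called in lung3 against wt. Rpl13 was higher in MYBup than in mock cells and had the opposite sign in lung3 cells, where its call depended on the fit: its adjusted p was 0.0673 over all libraries, 0.0167 with DESeq2, 0.0240 on the 6 libraries compared, 2.3e-05 on these with the replicate block and 0.0246 without MYBup replicate 1. Rpl36 and Rpl27a also had opposite signs, with log2 fold changes of 0.63 (edgeR adjusted p = 0.0559) and 0.50 (adjusted p = 0.241) in MYBup against mock. Without mock replicate 3 the edgeR adjusted p was 0.0397 for Rpl36 and 0.0211 for Rpl27a. Rpl36 also passed without MYBup replicate 1, lung3 replicate 1 or lung3 replicate 2 in this comparison (adjusted p 0.0217 to 0.0391), and in lung3 against wt without mock replicate 2, MYBup replicate 1 or lung3 replicate 1 (0.0357 to 0.0442). Rplp1 passed in lung3 against wt without lung3 replicate 1 (0.0357). Levels did not follow the labels throughout, since mock cells, labelled normal like wt, were low as well. Rpl13 averaged 433 CPM in mock, 419 in lung3 and 621 in wt cells. Rpl36 averaged 242, 213 and 367, and Rpl27a 217, 166 and 281. In mock against wt Rpl36 was not called over all libraries with edgeR but passed with DESeq2 (log2 fold change -0.59, adjusted p = 0.0244).

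Mock against wt cells shows what differs between the transfected control and the untransfected line. Of the 84 members 0 were higher, where 18% of all tested genes were, and 5 were lower (5.95% against 17.9%). Rpl13 fell by 0.52 on the log2 scale, Rps24 by 0.50, Rpl15 by 0.43, Rpl7l1 by 0.30 and Rps10 by 0.29 (edgeR adjusted p between 0.00706 and 0.0269). An unadjusted p under 0.05 was found in 15 members, where 45.8% of all genes had one, and without overlap 0 members were higher (23.2% of all genes) and 7 lower (23.7%). Rps24 kept its call without each single library. Rpl15 and Rps10 lost it without mock replicate 1, mock replicate 3, wt replicate 1 or wt replicate 2, Rpl13 without mock replicate 1, mock replicate 2, wt replicate 1 or wt replicate 3, and Rpl7l1 without mock replicate 1, mock replicate 3 or wt replicate 2. The rise of Rpl13, Rpl15, Rps10 and Rps24 from mock to MYBup is therefore measured from a control in which these 4 genes were lower than in wt cells; the 2 comparisons share the mock libraries. Against wt, MYBup cells had log2 fold changes of 0.29 in Rpl13 (edgeR adjusted p = 0.193; 0.47 and 0.0264 without MYBup replicate 1) and -0.14 in Rps24 (adjusted p = 0.385). The median over the members was -0.08 and became -0.21 without mock replicate 2, with 16 lower calls (19%, near the 16% of all genes lower in that fit), and 0.01 without mock replicate 3; 1 member was called without mock replicate 1, 2 without wt replicate 1 or wt replicate 2, 9 without wt replicate 3 and 8 without lung3 replicate 1 or lung3 replicate 2, all of them lower, where 13.2% to 17.8% of all genes were lower.

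MYBup against wt cells gave 4 higher members (4.76%, where 19.4% of all tested genes were higher) and 3 lower (3.57% against 18.7%). An unadjusted p under 0.05 was found in 10, where 47.6% of all genes had one, and without overlap 7 were higher (27.3% of all genes) and 2 lower (28.3%). Rpl22 had 373, 408 and 378 CPM in wt and 549, 488 and 513 CPM in MYBup (log2 fold change 0.42, SE 0.10, edgeR adjusted p = 0.00572). Rpl22l1 had 89.0, 100.4 and 105 CPM in wt, all above the MYBup values given above (log2 fold change -0.79, SE 0.15, edgeR adjusted p = 0.00129). These 2 calls held without each single library and in every other fit. Rplp0 and Rps26 were also among the higher members (log2 fold changes 0.34 and 0.28), and Rpl18 and Rpl7l1 were lower (-0.43 and -0.32); Rplp0 and Rpl18 were chosen after their values were seen. Rps26 lost its call without mock replicate 1, lung3 replicate 3 or any MYBup or wt library, and Rpl7l1 without MYBup replicate 2, MYBup replicate 3 or wt replicate 2. In these last 3 fits only 1 member was called lower, Rpl22l1, so Rpl18 lost its call as well. It also did without mock replicate 1, wt replicate 1 or lung3 replicate 3, where 2 were lower, Rpl22l1 and Rpl7l1. Rplp0 lost its call at least without wt replicate 3, where only 1 member was higher, Rpl22. The count of called members was 11 without mock replicate 2, 3 without MYBup replicate 3 or wt replicate 2, and 4 without mock replicate 1, MYBup replicate 2, wt replicate 1, wt replicate 3 or lung3 replicate 3. In these fits 14.9% to 21.7% of all genes were higher and 13.7% to 21.2% lower. Without mock replicate 2 and MYBup replicate 1 together, an alternative chosen after seeing the data, 23 members were lower and 0 higher in mock than in wt cells, 17 lower and 4 higher in MYBup than in wt cells, and 11 higher and 2 lower in MYBup than in mock cells. Over all genes in this fit, 18.3% were lower in mock than in wt, where the members had 27.4%, and 19.9% were lower in MYBup than in wt, where the members had 20.2%. In MYBup against mock 12.9% of all genes were higher, beside 13.1% of the members.

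In some paralogue pairs the ratio of counts did not overlap between some groups. With 3 libraries a group the ratio tests could not call such a difference, and how often other gene pairs do so was not counted. RPL22 protein is known to bind the transcript of Rpl22l1 and to lower it, so the pair can trade places. For every 100 counts of Rpl22 there were 17.8, 18.7 and 18.7 counts of Rpl22l1 in mock, 12.5, 11.04 and 9.45 in MYBup, 23.8, 24.6 and 27.9 in wt and 26.7, 31.2 and 23.7 in lung3 libraries. The ratio was lower in each MYBup library than in any other library and lower in each mock library than in any wt or lung3 library, whereas lung3 and wt overlapped. An exact two-sided permutation test gave p = 0.1 for MYBup against mock, mock against wt and MYBup against wt, the smallest value that 3 against 3 libraries allow (0.178 after Benjamini-Hochberg adjustment over 16 ratio tests), and 0.7 for lung3 against wt.

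Rps27l had a different order. For every 100 counts of Rps27 there were 28.5 ± 4.48 counts of Rps27l in mock, 21.7 ± 2.32 in MYBup, 20.2 ± 2.20 in wt and 21.0 ± 1.40 in lung3 cells (SD, n = 3). Mock libraries did not overlap with MYBup or wt libraries (exact permutation p = 0.1 for each, the smallest possible). The highest ratio, 33.7, was that of mock replicate 3, where Rps27 itself deviated by -0.32 from its mock mean. Rpl7l1, at 10.9 to 13.6 per 100 counts of Rpl7 as group means, and Rpl36al, at 24.6 to 28.9 per 100 of Rpl36a, were also compared. The Rpl7l1 ratio was higher in every lung3 than in every wt library (exact permutation p = 0.1). The Rpl36al ratio was lowest in wt cells and did not overlap with any other group. The testis- or muscle-type paralogues Rpl10l, Rpl39l, Rpl3l and Rps4l had between 0 and 3 counts in all libraries together, beside Rpl10, Rpl39, Rpl3 and Rps4x at 1036, 403, 1177 and 2108 CPM in mock cells.

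**Figure D5:**
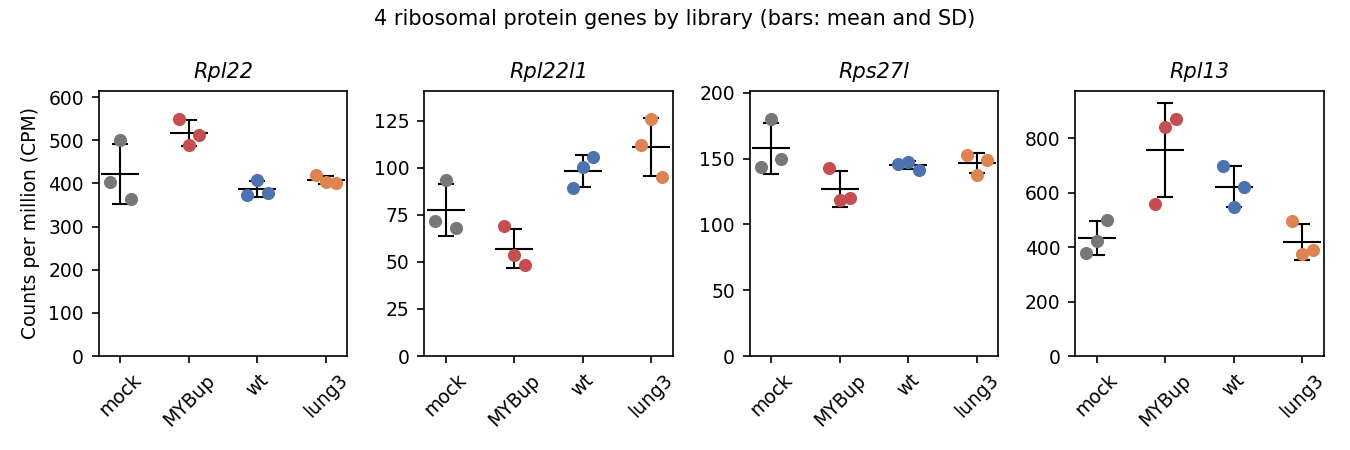
Levels (y axis, CPM from 0) of Rpl22, its paralogue Rpl22l1, Rps27l and Rpl13 in the 12 libraries by group; points are libraries and bars the mean and SD of 3. On average Rpl22 is highest and Rpl22l1 lowest in MYBup, and every Rpl13 value in MYBup is above every mock value.

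Other genes of the ribosome's production line were counted from lists chosen with earlier results of these data known. Of the ribosome components outside the naming rule, Fau, whose product is cleaved to a small-subunit protein, rose in MYBup against mock cells from 353 ± 14.4 to 471 ± 14.5 CPM (log2 fold change 0.42, edgeR adjusted p = 0.0298). Rack1, a signalling scaffold on the small subunit, had a log2 fold change of 0.01 (edgeR adjusted p = 0.982). Many ribosome biogenesis factors were lower in the transfected than in the untransfected cells. Of 46 tested, 30 were lower (65.2%, where 17.9% of all genes were) and 1 higher in mock than in wt (2.17% against 18%), and their median log2 fold change was -0.40. MYBup cells had 29 lower than wt (63%, where 18.7% of all genes were) and 1 higher (2.17% against 19.4%), with a median of -0.36. Both comparisons share the wt libraries. Nop56, a core protein of the small nucleolar particles that guide methylation of ribosomal RNA, stood at 213 ± 33.04 CPM in mock and 368 ± 19.0 in wt cells (log2 fold change -0.79, edgeR adjusted p = 6.71e-05). Heatr1, needed for transcription and processing of ribosomal RNA, had log2 fold changes of -0.74 in mock and -0.83 in MYBup against wt. The ribosomal protein genes had medians of -0.08 and -0.03 in these same comparisons. In MYBup against mock 7 biogenesis factors rose (15.2%, near the 14.3% of all genes) and 1, Fbl, the methyltransferase of these particles, fell by 0.37 (2.17% against 12.6%), with a median of 0.06; in lung3 against wt 0 of 46 were called, with a median of 0.11.

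Called translation factors and other genes with TOP mRNAs went both ways in MYBup against mock but mostly down in both transfected groups against wt. In MYBup against mock 2 of 40 rose (5%, where 14.3% of all genes did) and 4 fell (10% against 12.6%), among them Tpt1, a classic TOP mRNA, with 2422 ± 93.2 against 1563 ± 155 CPM (log2 fold change 0.63, edgeR adjusted p = 0.000135), and Eif2s3x, a subunit of the initiation factor eIF2, with 83.4 ± 8.52 against 171 ± 22.4 CPM (-1.04, adjusted p = 3.66e-05). In lung3 against wt 1 of 40 rose (2.5% against 2.91%), Eef1e1 (0.35, adjusted p = 0.0158). Against wt, 6 of 40 were lower in mock (15% against 17.9%), and 14 were lower (35% against 18.7%) and 1 higher in MYBup (2.5% against 19.4%). Among 18 genes of mTORC1 and TOP mRNA control 2 rose and 2 fell in MYBup against mock, 11.1% each way, where 14.3% and 12.6% of all genes did. Larp1, which represses TOP mRNAs, was among those that fell, with 266 ± 10.9 CPM in MYBup and 316 ± 27.2 in mock (-0.25, adjusted p = 0.0319), and it stood at 440 ± 23.8 CPM in wt cells. In lung3 against wt 0 of 18 were called. Of the 11 tested transcription factors linked to these genes, 1 fell in each of the 2 main comparisons (9.09%, where 12.6% and 2.44% of all genes fell), Gabpb1 in MYBup (-0.27, adjusted p = 0.0189) and the MYC antagonist Mxd4 in lung3 (-0.80, adjusted p = 0.0252). Of 77 mitochondrial ribosomal protein genes 6 rose (7.79% against 14.3% of all genes) and 1 fell (1.3% against 12.6%) in MYBup against mock, with a median of 0.10, and 2 fell in lung3 against wt (2.6% against 2.44%). Mrpl2 rose from 32.7 ± 3.89 to 48.3 ± 0.524 CPM in MYBup, and Mrps28 fell by 0.79 and Mrps6 by 0.44 on the log2 scale in lung3.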

How the data were processed

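RNA sequencing of 12 libraries (4 groups of 3) was analysed from the raw counts of reads per gene that the authors deposited, which are not normalised. In the deposited table large counts are rounded to 4 significant digits (476 of 1056 member values). The tools STAR and edgeR and the build GRCm38 are listed per the submitters' processing notes; how reads were counted, with which annotation and strand, is not given in the sources used here. A TruSeq RNA kit was used, per the labels' protocols. Of 22880 features 22570 matched a symbol; 39 members share exon bases with another gene, some with small nucleolar RNAs. The table had 0 unused columns.

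Tests used R 4.3.3 and edgeR 4.0.16: filterByExpr, TMM factors, and a quasi-likelihood F test with a term per group over all 12 libraries, with Benjamini-Hochberg adjustment over 11291 genes. SE is the absolute log2 fold change over the square root of F. The edgeR script was tested on simulated data. Alternatives were RLE factors, totals alone, TMM without the members, no filter, the 6 libraries compared, a replicate block, DESeq2 1.42.0, limma 3.58.1 voom, core members alone and leaving out each library; leaving out 2 libraries, transcript lengths and short other genes were added after seeing the data. Promoters come from RefSeq on GRCm38.p6; gene spans come from a GRCm38 annotation, the build listed for the counts. Figures used matplotlib 3.10.9 in Python 3.11.15.

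The members, lists and tests were chosen with earlier results of these data known. Named members were those called in MYBup against mock or lung3 against wt, the 4 largest each way in mock against wt, the 3 highest, 3 lowest and 3 most variable, and both genes of 8 paralogue pairs; other genes were Myb, Fau, Rack1 and at most 3 called per list. Some items covered by this rule are not reported here. Pairing was judged from deviations from group means over all tested genes: same-number correlations were 0.329, 0.294 and 0.309 for lung3 and wt, all above 0.1, and -0.191, -0.496 and 0.382 for MYBup and mock, where unlike numbers reached 0.636. The block is therefore printed beside results of lung3 against wt only.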

Additional observations from a re-analysis of the deposited data

How the results depend on the processing

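The numbers of called members moved with the fit. With the 6 libraries compared alone they were 4 (MYBup against mock), 3 (lung3 against wt) and 11 (MYBup against wt). The 4 were all higher (4.76%, where 11.5% of all genes were) and the 3 all lower (3.57% against 2.64%). Of the 11, 7 were higher (8.33% against 21.6%) and 4 lower (4.76% against 21.8%). With the replicate block they were 2, 12 and 15 in MYBup against mock, lung3 against wt and mock against wt. The 2 were higher (2.38%, where 7.09% of all genes were) and the 15 lower (17.9% against 15%). Shares for the 12 are given above. With DESeq2 they were 3 in lung3 against wt and 9 in mock against wt, and without the low-count filter 3 in lung3 against wt. All of these were lower: 3.57%, 10.7% and 3.45% of the members, beside 3.79%, 18% and 2.25% of all genes. Without mock replicate 2 and MYBup replicate 1 together they were 4 in lung3 against wt, 23 in mock against wt and 21 in MYBup against wt. In lung3 against wt 1.19% of the members were higher and 3.57% lower, beside 4.69% and 4.64% of all genes. In mock against wt 27.4% were lower, beside 18.3%. In MYBup against wt 4.76% were higher and 20.2% lower, beside 19.1% and 19.9%. Leaving out 1 library gave 2 to 16 in MYBup against mock, 0 to 4 in lung3 against wt, 1 to 16 in mock against wt and 3 to 11 in MYBup against wt. Over all genes 9.5% to 14.9% were higher and 8.47% to 14.8% lower in MYBup against mock. For lung3 against wt these ranges were 1.17% to 4.11% and 0.903% to 3.37%. In mock against wt, where every called member was lower, 13.2% to 17.8% of all genes were lower. For MYBup against wt the ranges were 14.9% to 21.7% higher and 13.7% to 21.2% lower. The cause of these moves was not tested. Size factors changed no count by more than 1.5 times, and the shares of counts, the medians and the numbers of members above their group mean stayed within the spread between libraries in the alternatives run. Over the named members 1949 alternative results kept their side of the threshold, 88 lost and 63 gained a call, and 0 reversed. The samples of every comparison share only a replicate number by their labels, and the pairing of lung3 with wt was judged from these same data. Calls lost or gained under the block therefore do not mark weaker or stronger effects. The adjusted p-values printed with the block for lung3 against wt rest on that judged pairing. The smallest difference of the whole group that 3 libraries a group could show was not tested.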
